A study of Leucoraja erinaceus with 6 samples.

Results

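The translation machinery of little skate (Leucoraja erinaceus) embryos was examined through 27 rows of a deposited expression table of 7080 rows. These rows were all those whose protein description named a translation initiation, elongation or termination factor, an elongation factor 1 or 2, a tRNA synthetase, the poly(A) binding protein or the nascent polypeptide-associated complex. The rule itself reads descriptions and no measured value, but it was set with earlier results of these data known. It gave 16 initiation rows, 5 cytosolic elongation rows, 1 mitochondrial elongation row, 1 termination row, 2 tRNA synthetase rows, 1 row of a poly(A) binding protein partner and 1 row of the nascent polypeptide-associated complex. Only 1577 rows carried a description, so further translation genes may stand among the rows without one.

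There were 3 libraries of motor neurons of the pectoral fin, the spinal neurons that drive this paired fin (replicates 1, 2 and 3), and 3 of cells from the tail spinal cord (replicates 1, 2 and 4). All came from the spinal cord of wild type embryos at stages 30 to 31, and the cells were sorted by hand. The groups differ by label in both cell class and axial level, which cannot be told apart, and the labels do not say whether libraries came from separate embryos or how many were pooled. Values are TPM (transcript abundance scaled for transcript length and for the library total). In such bulk samples fewer cells of a type and less RNA per cell cannot be told apart.

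Translation runs in steps, and each step has its own factors. eIF2 carries the initiator tRNA to the small ribosomal subunit, eIF1A and the large scaffold eIF3 hold the complex together, and eIF4E with the helicase eIF4A brings in the capped mRNA. eEF1A then delivers charged tRNAs, eEF2 moves the ribosome along, the release factor reads the stop codon, and tRNA synthetases load each tRNA with its amino acid. Neurons also translate some mRNAs locally in their axons, and inherited defects of several tRNA synthetases cause peripheral neuropathies in humans.

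The libraries were uneven, which bears on every value given here. The deposited rows summed to 50000, 55076 and 63021 TPM in pectoral replicates 1, 2 and 3 and to 74224, 57907 and 48449 TPM in tail replicates 1, 2 and 4. These sums are a small part of the library total to which TPM is scaled, so most of each library lies outside the table. Rows listed at 0 numbered 5, 2169 and 2102 in the pectoral libraries and 1051, 1586 and 3552 in the tail libraries. The table held 1 contig for each of 7080 protein accessions, so a value is the level of 1 assembled contig and other contigs of the same gene may lie outside the table. Of 7 motor neuron marker genes listed, 5 had a row, and MNX1 and LHX3 had no described row. ISL1, ISL2 and NGFR were higher in each pectoral library than in any tail library, while CHAT and SLC18A3 overlapped. CHAT peaked in pectoral replicate 2 (3.72 TPM) but was listed at 0 in pectoral replicate 3, below every tail library. SLC18A3 in pectoral replicates 1 and 3 (3.88 and 3.61 TPM) exceeded every tail library. In pectoral replicate 2 (2.09 TPM) it fell below tail replicates 1 (2.72 TPM) and 4 (2.77 TPM). NGFR was listed at 0 in each tail library, and the progenitor marker SOX2 at 0 in pectoral replicate 2 and tail replicate 4. The summed motor neuron rows were 15.6 to 17.7 TPM in pectoral and 2.91 to 5.96 TPM in tail libraries. Summed rows of 5 of 6 progenitor and glial genes were 73.7 to 116 TPM in pectoral and 22.7 to 55.2 TPM in tail libraries. Most of the pectoral sum came from ID4 (72.6, 30.3 and 76.9 TPM across the pectoral replicates, against 14.4, 22.4 and 0.309 TPM across the tail replicates) and a FABP7 row, while SOX2 and both SOX9 rows overlapped between groups and had their highest values in tail libraries (for SOX2, 2.85 TPM at most in pectoral against 13.98 TPM at most in tail libraries). For 3 of 6 interneuron genes the sums were 0.681 to 14.7 TPM in pectoral and 5.38 to 34.1 TPM in tail libraries. For 3 of 5 genes of dividing cells they were 1.62 to 12.1 TPM against 11.9 to 40.9 TPM. CCND1 made up nearly all of the tail sum, with 9.59, 0 and 6.66 TPM across the pectoral replicates, against 11.9, 40.3 and 37.2 TPM across the tail replicates. MCM7 lay the other way, at 1.07 to 1.62 TPM in pectoral libraries and listed at 0 in each tail library, and PCNA overlapped. The 5 listed blood and muscle markers had no described row. The part of any of these cell types in the results below was not tested.

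Most translation factor rows had lower mean TPM in pectoral fin motor neurons than in tail spinal cord cells, but none passed the test over the table. Mean TPM was lower in pectoral libraries in 21 of 27 rows (77.8%), against 49.1% of all 7080 rows. In the limma test on log2(TPM + 1), which covered rows that reached 1 TPM in 3 or more libraries, 20 of the 27 rows entered and 0 passed an adjusted p under 0.05, against 0.08% of the 3752 rows tested. Adjusted p-values of the 20 rows ran from 0.647 to 0.998. At an unadjusted p under 0.05, 1 of the 20 was lower in pectoral libraries and 0 were higher, against 3.94% and 3.09% of all rows tested. Of the 20 tested rows 14 had a negative log2 fold change, pectoral minus tail, a share of 70% against 56.5% of all tested rows. The median log2 fold change was -0.40 for the 20 rows and -0.18 for all tested rows. The share of negative rows in the table rose with level, from 47.0% with no filter to 64.8% with a filter of 5 TPM in 3 libraries. With that filter 7 of 9 translation factor rows were negative, and the medians were -0.73 for these 9 and -0.42 for all 909 rows.

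**Figure D1:**
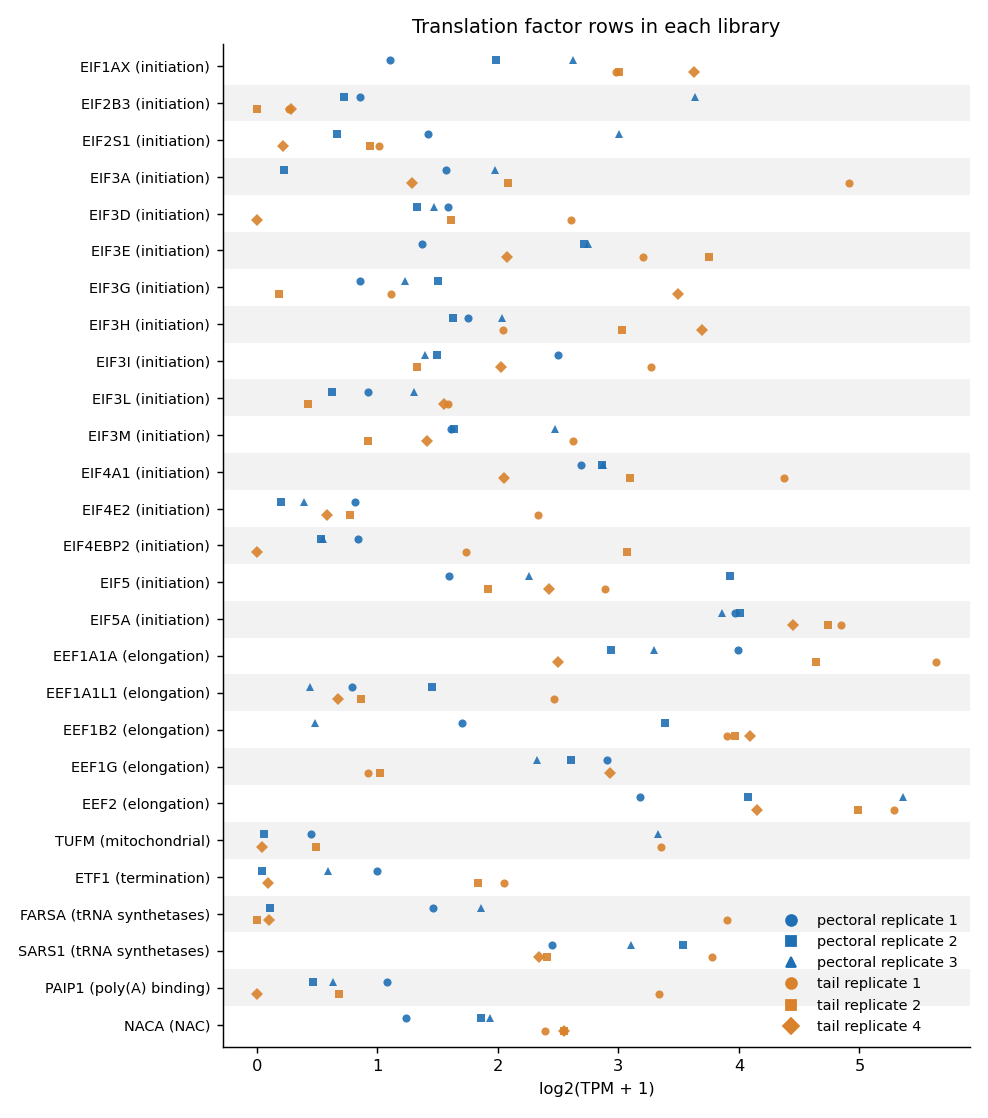
Level of each of the 27 rows, as log2(TPM + 1) on the horizontal axis, in 3 pectoral (blue, upper) and 3 tail (orange, lower) libraries, with a marker shape for each replicate. EIF5A and EEF2 stood at the high end in all 6 libraries, while TUFM, EIF3A and FARSA were high in 1 or 2 libraries and low in others.

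The groups did not overlap in 5 of the 20 tested rows, with every pectoral library below every tail library in each of them, a share of 25% against 7.6% of all tested rows. The reverse order was seen in 0 of the 20, against 4.18% of tested rows. These 5 were EIF5A, EIF1AX, EIF3H, EEF1B2 and NACA. Permuting the 3 against 3 group labels exactly, two-sided, gave p = 0.1 for each, the smallest value such a test can give. Any row whose groups do not overlap must get this value, so it restates the separation and adds no support. For the other 15 tested rows the permutation p ran from 0.3 to 1. In the authors' deposited table, p was under 0.05 without adjustment in 4 of the 27 rows, all 4 lower in pectoral libraries, against 3.09% of all rows, and these were EIF5A (0.00814), NACA (0.00897), EEF1B2 (0.0184) and EIF1AX (0.0464). The separation depended on scaling. With median-ratio scaling or quantile scaling, 0 of the 20 rows were separated in this direction, against 5.12% and 6.77% of all tested rows. When each library was rescaled to the same row sum, 4 stayed separated, against 7.12% of all tested rows, and EIF3H did not.

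**Figure D2:**
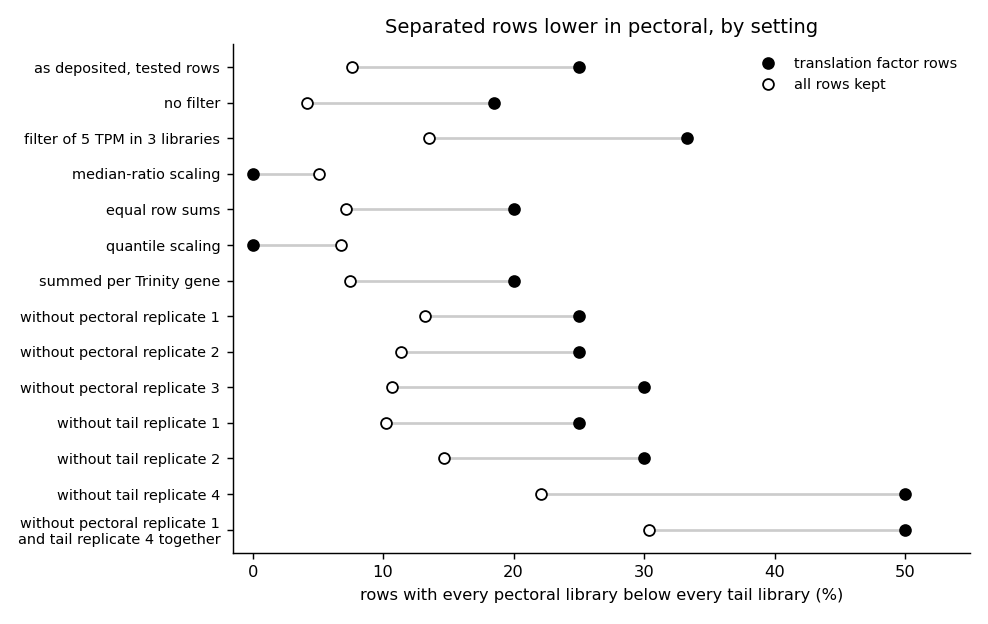
Share of rows in percent with every pectoral library below every tail library, for the translation factor rows (filled) and all rows kept (open), with the setting on the vertical axis. The translation factor share was 25% as deposited, 0% with median-ratio or quantile scaling and 50% without tail replicate 4.

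Among factors that assemble the initiation complex, EIF1AX, which helps the small ribosomal subunit find the start codon, had 1.15, 2.97 and 5.16 TPM across the pectoral replicates, against 6.88, 7.02 and 11.3 TPM across the tail replicates. The highest pectoral library stayed below the lowest tail library. Its mean was 2.72 times as high in tail libraries, and the log2 fold change was -1.30 (SE 0.97, adjusted p = 0.867 by limma). EIF2S1, the alpha subunit of eIF2 whose phosphorylation slows initiation under stress, had 1.68, 0.589 and 7.01 TPM across the pectoral replicates, against 1.02, 0.920 and 0.163 TPM across the tail replicates. Pectoral replicate 3 stood far above the rest, and pectoral replicate 2 lay below tail replicates 1 and 2. The log2 fold change of EIF2S1 was 0.97 (SE 0.89, adjusted p = 0.894 by limma).

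EIF2B3, the gamma subunit of the exchange factor eIF2B that reloads eIF2 with GTP, had 0.805, 0.653 and 11.4 TPM in pectoral libraries. In tail libraries EIF2B3 had 0.201, 0 and 0.220 TPM. Every pectoral library lay above every tail library, but EIF2B3 reached 1 TPM in pectoral replicate 3 alone and was too low to enter the test. Among the 3328 rows that were not tested, 5.08% were separated in this direction. EIF2S1 and EIF2B3 thus both had their highest value in pectoral replicate 3. That library was the highest in 3 of the 27 rows (11.1%) and in 11.8% of all rows. EIF5, which triggers GTP hydrolysis on eIF2 at the start codon, had 2.02, 14.2 and 3.78 TPM across the pectoral replicates, against 6.39, 2.77 and 4.36 TPM across the tail replicates. Pectoral replicate 2 was the highest and the other pectoral libraries lay within or below the tail range (log2 fold change 0.18, SE 0.99, adjusted p = 0.984 by limma).

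The scaffold eIF3 was represented by 8 subunits, all of them tested, and 0 passed. Their summed level was 16.3, 15.6 and 22.6 TPM across the pectoral replicates, against 62.5, 27.8 and 33.5 TPM across the tail replicates, so the sums did not overlap. The subunit EIF3E had 5.73 TPM in pectoral replicate 3 and 12.5 TPM in tail replicate 2. Without EIF3E the sum of pectoral replicate 3 lay above that of tail replicate 2, so the groups overlapped. After median-ratio scaling, added after seeing the data, the sums of all 8 were 15.0, 17.01 and 24.6 across the pectoral replicates, against 28.9, 24.8 and 42.6 across the tail replicates. Pectoral replicate 3 then lay only just below tail replicate 2. EIF3A, the core subunit, had the largest difference of group means among the 8, with 1.69 TPM for pectoral samples, against 11.3 TPM for tail samples. EIF3A had 1.96, 0.170 and 2.93 TPM across the pectoral replicates, against 29.1, 3.25 and 1.45 TPM across the tail replicates (log2 fold change -1.51, SE 1.08, adjusted p = 0.867 by limma). Tail replicate 1 stood far above all other libraries, and tail replicate 4 lay within the pectoral range. Without tail replicate 1 the log2 fold change of EIF3A was -0.43.

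EIF3H had 2.37, 2.09 and 3.09 TPM across the pectoral replicates, against 3.12, 7.17 and 11.9 TPM across the tail replicates. Its groups were separated by the narrow gap between pectoral replicate 3 and tail replicate 1 (log2 fold change -1.12, SE 0.98, adjusted p = 0.888 by limma). EIF3E had 1.58, 5.56 and 5.73 TPM across the pectoral replicates, against 8.23, 12.5 and 3.21 TPM across the tail replicates (log2 fold change -0.73, SE 0.97, adjusted p = 0.908 by limma). Tail replicate 4 lay below 2 of the pectoral libraries, so the groups overlapped.

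The other subunits did not share one pattern. EIF3G had 0.815, 1.84 and 1.35 TPM across the pectoral replicates, against 1.17, 0.136 and 10.3 TPM across the tail replicates, with tail replicate 4 highest and tail replicate 2 lowest. Its log2 fold change was -0.40, but 0.55 without tail replicate 4. EIF3D had 1.996, 1.52 and 1.78 TPM across the pectoral replicates, against 5.07, 2.06 and 0 TPM across the tail replicates, so tail replicates 1 and 2 lay above all pectoral libraries while tail replicate 4 was listed at 0. EIF3M had 2.06, 2.10 and 4.57 TPM across the pectoral replicates, against 5.17, 0.890 and 1.66 TPM across the tail replicates, with tail libraries at both ends of the range. EIF3I and EIF3L overlapped as well, with log2 fold changes of -0.41 and -0.24, and that of EIF3I was 0.12 without tail replicate 1. Within 1 library the subunits spanned 0.815 to 4.65 TPM in pectoral replicate 1, 0.170 to 5.56 TPM in pectoral replicate 2 and 1.35 to 5.73 TPM in pectoral replicate 3. In tail replicates 1, 2 and 4 they spanned 1.17 to 29.1 TPM, 0.136 to 12.5 TPM and 0 to 11.9 TPM. The highest subunit was EIF3I, EIF3E and EIF3E in the pectoral libraries and EIF3A, EIF3E and EIF3H in the tail libraries.

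**Figure D3:**
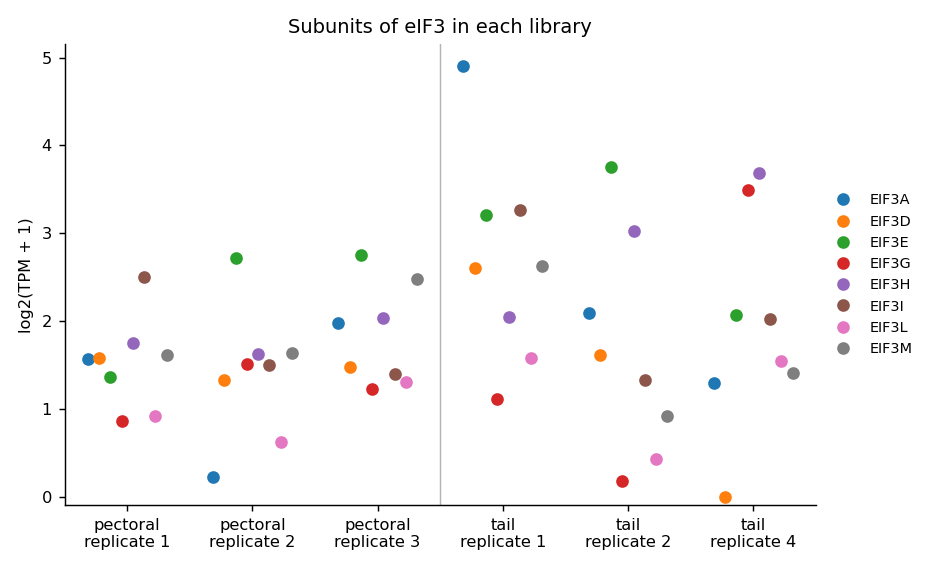
Level of the 8 eIF3 subunits as log2(TPM + 1) in each library, pectoral libraries left and tail libraries right, with a colour for each subunit. The median subunit stood at 1.98, 1.83 and 2.36 TPM across the pectoral replicates, against 5.12, 1.78 and 2.502 TPM across the tail replicates, and the order of the subunits differed between libraries.

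Of the factors that recruit capped mRNA, EIF4A1, the helicase that unwinds leader sequences, was even in pectoral libraries at 5.46, 6.26 and 6.33 TPM. In tail libraries EIF4A1 had 19.7, 7.55 and 3.13 TPM. The coefficient of variation was 8.07% in pectoral and 84.8% in tail libraries, and the tail values enclosed the pectoral ones (log2 fold change -0.36, SE 0.95, adjusted p = 0.965 by limma). EIF4E2, a relative of the cap-binding protein eIF4E, and EIF4EBP2, which blocks eIF4E, were too low to test. EIF4E2 had 0.756, 0.151 and 0.310 TPM across the pectoral replicates, against 4.05, 0.711 and 0.5003 TPM across the tail replicates, and EIF4EBP2 had 0.791, 0.444 and 0.464 TPM against 2.34, 7.38 and 0 TPM. Both overlapped between groups. PAIP1, a partner of the poly(A) binding protein that links it to eIF4A and eIF3, had 1.11, 0.378 and 0.553 TPM across the pectoral replicates, against 9.09, 0.600 and 0 TPM across the tail replicates. Only tail replicate 1 lay above the pectoral range, and PAIP1 was not tested. The poly(A) binding protein itself was named by no described row.

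EIF5A, the hypusine-bearing factor that keeps ribosomes moving through difficult stretches such as runs of proline, had the smallest spread within groups of the 20 tested rows. It had 14.7, 15.1 and 13.5 TPM across the pectoral replicates, against 27.8, 25.8 and 20.8 TPM across the tail replicates. Every pectoral library lay well below the lowest tail library. The means were 14.4 ± 0.802 TPM for pectoral samples, against 24.8 ± 3.58 TPM for tail samples (SD, n = 3 each), 1.72 times as high in tail libraries. The pooled SD within groups was 0.156 on the log2(TPM + 1) scale, and 0.133% of all tested rows had a smaller one. The log2 fold change was -0.73 with a 95% interval of -2.39 to 0.93 (SE 0.82, adjusted p = 0.900 by limma). limma moves the variance of each row towards that of rows of like level, and the SD within groups was 1.30 at the median over the 408 tested rows of 10 to 40 TPM. With median-ratio scaling the log2 fold change of EIF5A was -0.40 and its groups overlapped.

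**Figure D4:**
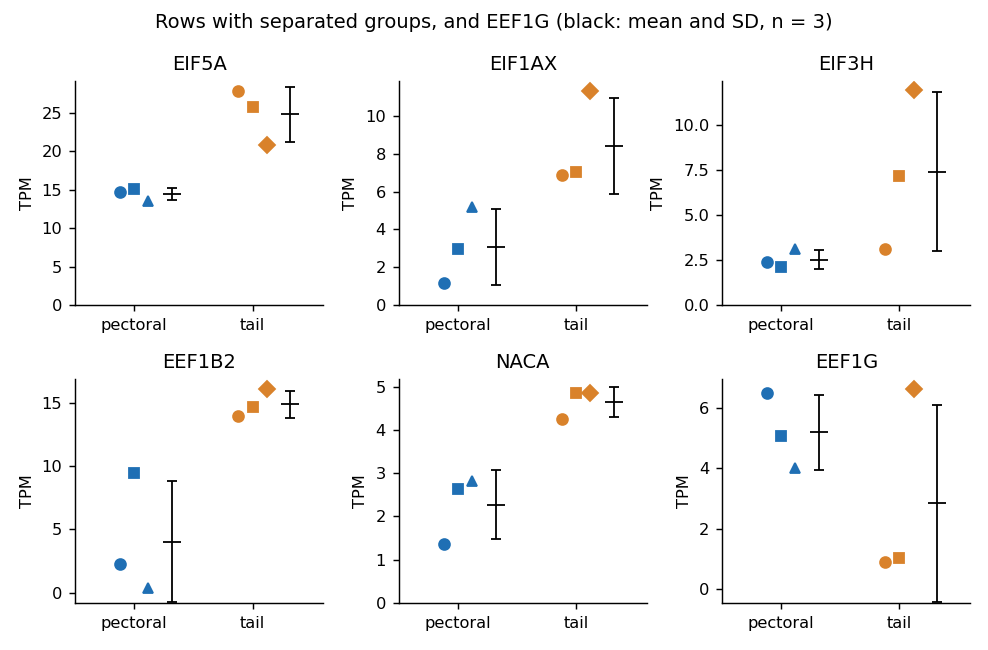
TPM of EIF5A, EIF1AX, EIF3H, EEF1B2, NACA and EEF1G in 3 pectoral (blue, left) and 3 tail (orange, right) libraries, with the mean and SD in black and marker shapes for replicates. The first 5 had all pectoral libraries below all tail libraries, with EIF5A at 13.5 to 15.1 TPM against 20.8 to 27.8 TPM, while EEF1G overlapped.

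Elongation factors held the highest rows next to EIF5A. EEF2, which moves the ribosome by one codon, had the highest mean of the 27 rows, with 8.05, 15.9 and 40.01 TPM across the pectoral replicates, against 38.03, 30.6 and 16.7 TPM across the tail replicates. Pectoral replicate 3 was the highest of all 6 libraries and pectoral replicate 1 the lowest (log2 fold change -0.60, SE 0.84, adjusted p = 0.908 by limma). With pectoral replicate 1 left out the log2 fold change of EEF2 was -0.09, and with pectoral replicate 3 left out it was -1.18. EEF1A1A, which delivers charged tRNAs to the ribosome, had 14.9, 6.67 and 8.81 TPM across the pectoral replicates, against 48.8, 23.99 and 4.65 TPM across the tail replicates. Tail replicates 1 and 2 lay above every pectoral library and tail replicate 4 below every one (log2 fold change -0.85, SE 0.92, adjusted p = 0.895 by limma). Leaving out tail replicate 1 gave EEF1A1A a log2 fold change of -0.16, and leaving out tail replicate 4 gave -1.73.

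For EEF1A1A and EEF2 the table held a further contig of the same Trinity gene, the assembly's own grouping of related contigs, without a description. The contig beside EEF1A1A was the more abundant, at 21.8, 38.9 and 40.8 TPM across the pectoral replicates, against 73.8, 46.1 and 34.1 TPM across the tail replicates. Summed over both contigs, the EEF1A1A gene stood at 36.7, 45.5 and 49.6 TPM across the pectoral replicates, against 123, 70.1 and 38.8 TPM across the tail replicates, and the groups still overlapped through tail replicate 4. The summed EEF2 contigs gave 18.6, 31.4 and 44.5 TPM against 80.9, 40.6 and 16.7 TPM, also with overlapping groups. Whether such contigs are alleles, paralogs or isoforms was not tested. EEF1A1L1, a second eEF1A description, was low, at 0.726, 1.74 and 0.356 TPM across the pectoral replicates, against 4.54, 0.815 and 0.599 TPM across the tail replicates, and was not tested.

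The subunits of the exchange factor that recharges eEF1A with GTP had log2 fold changes of opposite sign. EEF1B2, its beta subunit with the catalytic domain, had 2.26, 9.45 and 0.401 TPM across the pectoral replicates, against 13.97, 14.7 and 16.1 TPM across the tail replicates. The tail libraries were close together and all lay above the scattered pectoral ones, with coefficients of variation of 118% in pectoral and 7.22% in tail libraries. Its log2 fold change of -2.13 (SE 0.97, 95% interval -4.11 to -0.15) was the largest in size of the 20, with an unadjusted p of 0.0356 and an adjusted p of 0.647 by limma. With median-ratio or quantile scaling, 0 of the 20 rows had an unadjusted p under 0.05 by limma. The same held without pectoral replicate 1, pectoral replicate 3, tail replicate 1 or tail replicate 2. Without tail replicate 4, and with libraries 1 and 2 paired by number, 1 row did, and it was EIF3A, not EEF1B2. With pectoral replicate 1 and tail replicate 4 both left out, the 1 row was EEF1A1A. EEF1G, the gamma subunit that anchors the complex, had 6.50, 5.07 and 4.02 TPM across the pectoral replicates, against 0.890, 1.02 and 6.61 TPM across the tail replicates. Tail replicates 1 and 2 lay below every pectoral library and tail replicate 4 above every one (log2 fold change 0.99, SE 1.01, adjusted p = 0.894 by limma). The ratio of EEF1B2 to EEF1G TPM within a library, formed after their values were seen, was 0.348, 1.86 and 0.0996 in pectoral and 15.7, 14.3 and 2.43 in tail libraries. It is given as a description without a test.

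TUFM, the mitochondrial counterpart of eEF1A, was present at 9.03 TPM in pectoral replicate 3 and 9.24 TPM in tail replicate 1. The other libraries held 0.367 and 0.0422 TPM in pectoral replicates 1 and 2 and 0.402 and 0.0308 TPM in tail replicates 2 and 4. The highest and lowest of the 6 libraries differed by 299.9 times, and both were tail libraries, so the row followed single libraries and not the groups. TUFM was not tested. ETF1, the release factor that recognises stop codons, had 0.994, 0.0298 and 0.504 TPM across the pectoral replicates, against 3.14, 2.56 and 0.0632 TPM across the tail replicates. Tail replicates 1 and 2 lay above all pectoral libraries, and tail replicate 4 near the bottom, and ETF1 was too low to test.

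Both tRNA synthetase rows overlapped between groups. SARS1, which loads serine, was the steadier, with 4.45, 10.6 and 7.596 TPM across the pectoral replicates, against 12.7, 4.30 and 4.06 TPM across the tail replicates. Its means were 7.56 ± 3.09 TPM for pectoral samples, against 7.01 ± 4.91 TPM for tail samples (SD, n = 3 each), with a log2 fold change of 0.19 and a 95% interval of -1.73 to 2.12 (adjusted p = 0.984 by limma). FARSA, the alpha subunit of the enzyme that loads phenylalanine, had 1.76, 0.0766 and 2.62 TPM across the pectoral replicates, against 13.9, 0 and 0.0726 TPM across the tail replicates. Tail libraries held both the highest and the lowest value (log2 fold change -0.19, 95% interval -2.23 to 1.85, adjusted p = 0.984 by limma). Without tail replicate 1 its log2 fold change was 1.09.

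NACA, the alpha subunit of the complex that binds nascent chains as they leave the ribosome, had 1.35, 2.63 and 2.82 TPM across the pectoral replicates, against 4.25, 4.86 and 4.85 TPM across the tail replicates. The tail libraries were close together and all lay above the pectoral ones. The means were 2.27 ± 0.798 TPM for pectoral samples, against 4.65 ± 0.348 TPM for tail samples (SD, n = 3 each), and the log2 fold change was -0.82 (SE 0.98, adjusted p = 0.900 by limma). A further contig of the same Trinity gene, without a description, had 3.35, 0 and 1.005 TPM across the pectoral replicates and was listed at 0 in each tail replicate. Summed over both contigs the values were 4.70, 2.63 and 3.83 TPM across the pectoral replicates, against 4.25, 4.86 and 4.85 TPM across the tail replicates, and the groups overlapped.

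**Figure D5:**
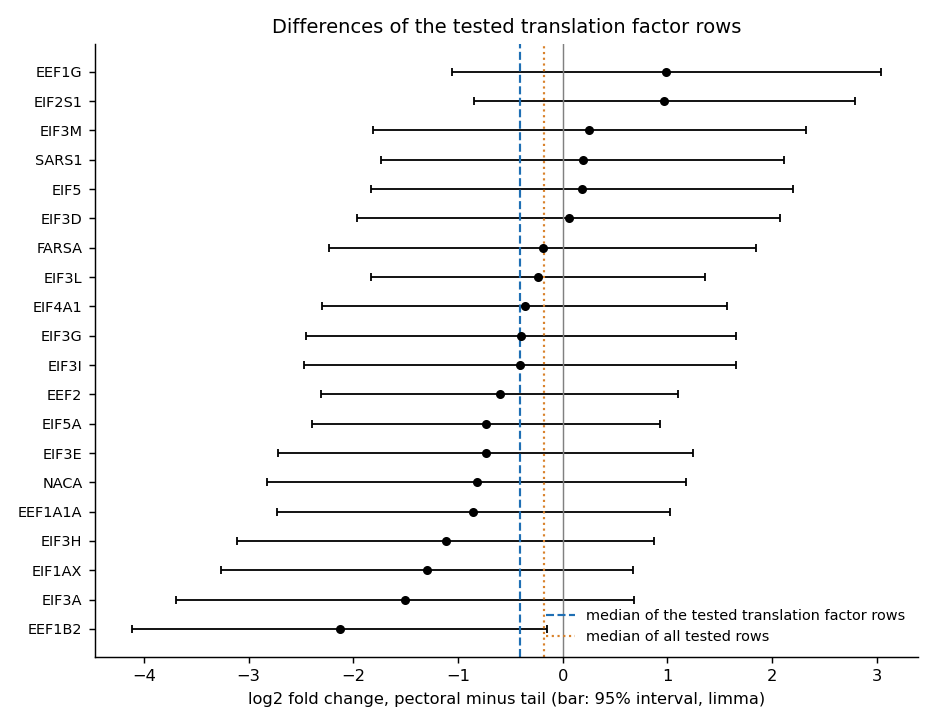
Difference of mean log2(TPM + 1), pectoral minus tail, for the 20 tested rows, with 95% intervals from limma as bars. Of the 20 intervals only that of EEF1B2 (-4.11 to -0.15) left out 0; the dashed line marks the median of the 20 rows (-0.40) and the dotted line that of all tested rows (-0.18).

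Across the classes, the initiation rows summed to 43.7, 55.9 and 70.5 TPM across the pectoral replicates, against 130.8, 79.9 and 74.001 TPM across the tail replicates, without overlap. This class was set by description and counts EIF5A, its row of highest mean TPM. EIF5A had 13.5 TPM in pectoral replicate 3 and 25.8 and 20.8 TPM in tail replicates 2 and 4. Without EIF5A the initiation sum of pectoral replicate 3 lay above those of tail replicates 2 and 4, so the groups overlapped. After median-ratio scaling the sums of the whole class overlapped (40.1, 60.8 and 77.0 across the pectoral replicates, against 60.6, 71.2 and 94.1 across the tail replicates). The elongation rows summed to 32.4, 38.8 and 53.6 TPM across the pectoral replicates, against 106, 71.2 and 44.6 TPM across the tail replicates, with tail replicate 4 inside the pectoral range. All 27 rows together held 86.1, 108 and 147 TPM across the pectoral replicates, against 289, 164 and 128 TPM across the tail replicates. EIF5A, EEF1A1A and EEF2 made up 34.6% to 43.7% of this in pectoral and 33.003% to 49.1% in tail libraries. As a share of all deposited rows the 27 held 0.172%, 0.197% and 0.234% in pectoral and 0.390%, 0.283% and 0.264% in tail libraries, without overlap. The largest row of each library, taken library by library, held 32.7%, 38.3% and 47.2% of the sum in pectoral and 27.7%, 29.3% and 25.8% in tail libraries. With the largest row of each library left out of its sum the shares were 0.256%, 0.319% and 0.442% in pectoral and 0.539%, 0.400% and 0.355% in tail libraries, and the groups overlapped.

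Single libraries set where the highest values fell. Tail replicate 1 was the highest library in 15 of the 27 rows (55.6%), against 29.2% of all rows, and pectoral replicate 1 in 0 of the 27, against 26.4% of all rows. The cytosolic ribosomal protein rows shared this. Tail replicate 1 was the highest library in 36 of those 69 rows (52.2%) and pectoral replicate 1 in 0. The median row of the 27 stood at 1.76, 1.84 and 3.09 TPM across the pectoral replicates, against 6.39, 2.56 and 3.08 TPM across the tail replicates. Over all 7080 rows the median was 1.58, 0.428 and 0.356 TPM across the pectoral replicates, against 1.76, 0.703 and 0 TPM across the tail replicates. Pectoral replicate 1 thus had a high table median and a low level of translation factor rows relative to it. It was also the library with 5 rows listed at 0, against 1051 to 3552 in the others. Rows at 1 TPM or more made up 75.8% of the table in pectoral replicate 1, against 27.3% to 60.2% in the others. Whether the choice of rows for the table favoured pectoral replicate 1 was not tested. Without tail replicate 1 the median log2 fold change of the 20 tested rows was -0.10, against 0.17 for all tested rows. In that setting 5 of the 20 were separated with pectoral lower, against 10.2% of all tested rows, and 3 with pectoral higher, against 14%. Without tail replicate 4, 10 of the 20 rows were separated with pectoral lower, against 22.1% of all tested rows, and their median was -0.76 against -0.44.

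Other genes of protein synthesis were few in the described rows. A list of such genes matched 7 further rows, of which 4 were tested and 0 passed in either direction. TPT1, the translationally controlled tumor protein, had 3.19, 7.21 and 6.98 TPM across the pectoral replicates, against 13.9, 6.77 and 5.40 TPM across the tail replicates. The translocon subunits that pass nascent chains into the endoplasmic reticulum overlapped too, with log2 fold changes of -0.81 for the beta subunit and 0.09 for the alpha 1 subunit. The fourth, a signal recognition particle subunit, had a log2 fold change of -1.02 (SE 0.80, adjusted p = 0.867 by limma). ABCE1, which splits ribosomes after termination, had 2.05, 0.221 and 0 TPM across the pectoral replicates and was listed at 0 in each tail replicate, and ABCE1 was not tested. The mitochondrial G elongation factors 1 and 2, whose descriptions fell outside the rule, were not tested either. Their mean TPM was 1.36 and 0.585 in pectoral libraries, against 0.531 and 0.360 in tail libraries, with overlapping groups. Of the 7 rows, 4 had lower and 3 had higher mean TPM in pectoral libraries.

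The cytosolic ribosomal proteins, the nearest part of the machinery, also had mostly negative log2 fold changes. Of 69 rows all were tested and 0 passed. The median log2 fold change was -0.54, against -0.18 for all tested rows, and 76.8% were negative, against 56.5%. Their groups were separated with pectoral lower in 10 of 69 rows, or 14.5%, against 7.6% of all tested rows. They were separated with pectoral higher in 0, against 4.18%. Among all rows that passed a filter of 5 TPM in 3 libraries, 64.8% were negative and 13.5% were separated with pectoral lower. Separation of the ribosomal rows under other scalings was not tested. The difference between the ribosomal and the translation factor rows was not tested.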

How the data were processed

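RNA of hand-sorted spinal cord cells was prepared as stranded mRNA libraries (Picopure extraction and Illumina TruSeq, per the labels' protocols). The authors' deposited table gives TPM in 6 columns, per the file headers. Tools listed by the submitters' processing notes were Salmon 0.8.2, Trimmomatic 0.33 and edgeR 3.18.1, with no role stated. No source used here states the genome build or where the protein descriptions came from. The table also holds an unadjusted p-value for each row, deposited by the authors, and this was copied and not recomputed.

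Of 7081 rows, 1 exact repeat was removed. Groups came from the source labels and columns from the titles. TPM keep no read number, so the depth is unknown and no counting interval is given. Symbols stand for the protein descriptions and are not verified skate orthologs.

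The fit was limma 3.58.1 in R 4.3.3 (empirical Bayes with a variance trend, two-sided) on log2(TPM + 1) over the 3752 rows that reached 1 TPM in 3 or more libraries, with Benjamini-Hochberg adjustment over these rows and calls at 0.05. Fold changes (pectoral minus tail) of low rows understate the TPM ratio through the pseudocount of 1. Single rows were also tested by an exact permutation test (scipy 1.17.1). The fit was also run on simulated data with independent errors. The libraries here are uneven, so that run does not tell which differences the fit would miss in them. Since separate embryos are not stated, p-values reflect library spread alone, possibly technical.

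Rows were named in full where they were separated between groups, among the 8 highest, among the 2 highest of their class, or among the 6 largest differences in each direction. The other rows were named after their values were seen, as were the sums over contigs and the ratio of EEF1B2 to EEF1G. The members and lists were chosen with earlier results of these data known. From the list of other genes, 1 match of another function, a fin bud initiation factor, and 2 transcription factors of elongation were left out. Alternatives covered filters, pseudocounts, scalings, contig sums, weights, the replicate block and left-out libraries.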

Additional observations from a re-analysis of the deposited data

How the results depend on the processing

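No translation factor row passed an adjusted p of 0.05 in any of the 19 alternatives (0 calls in each), which tested 9 to 27 of them. Among all 3752 rows, 3 passed, and this count was 1 with a filter of 5 TPM, with a pseudocount of 0.1, with median-ratio scaling, with no variance trend and with the replicate block, 26 with array weights, 5 with robust empirical Bayes and 0 with pectoral replicate 1 and tail replicate 4 both left out. Without 1 library it ranged from 1 to 3.

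The median log2 fold change of the tested translation factor rows was -0.40 and stayed negative throughout, from -0.76 to -0.10 without 1 library. With the replicate block, which pairs libraries 1 and 2 by their number, it was -0.83 (all rows -0.44). Pectoral replicate 3 and tail replicate 4 have no partner in that fit. Its group differences therefore rest on libraries 1 and 2 of each group alone. No pairing by number was visible, since same-numbered libraries deviated from their group means with r of -0.03 and -0.0027. In libraries this uneven such values cannot exclude a pairing. Median-ratio scaling moved the median of all tested rows by 0.26 to 0.08 and quantile scaling by 0.13 to -0.05. Relative to all rows, the translation factor median was -0.23 as deposited, -0.28 and -0.22 under these scalings and between -0.50 and -0.06 over all alternatives. The count of negative rows, 14 of 20 as deposited, ran from 11 to 17 over the alternatives that tested 20 rows. It was 11 without tail replicate 1 (45.0% of all rows) and with array weights (55.5% of all rows). Without tail replicate 2 it was 17 (55.9% of all rows).

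The count of 5 separated rows, an alternative set added after seeing the data, was 0 with median-ratio and quantile scaling, 3 of 9 tested with a filter of 5 TPM (13.5% of all rows), 10 with pectoral replicate 1 and tail replicate 4 both left out (30.4% of all rows), and 5 to 10 without 1 library (10.2% to 22.1% of all rows). Summed per Trinity gene it was 4 (7.47% of all rows), without NACA. Separation with pectoral higher, seen in 0 of the 20 as deposited, also appeared under some alternatives. It held for 3 rows without tail replicate 1 (EIF3M, FARSA and SARS1, 14% of all rows). It held for 1 without pectoral replicate 2 (EIF2S1, 7.68%) and 1 without tail replicate 4 (EEF1G, 5.65%). With both libraries left out it held for 2 (EEF1G and EIF3G, 9.38%), and with no filter for 1 (EIF2B3, 4.6%).

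The sign of 9 of the 20 tested rows turned under some alternative. With a pseudocount of 0.1, median-ratio scaling and array weights FARSA was at 0.63, 0.14 and 0.51. With a pseudocount of 5, array weights, the replicate block and with both of those libraries left out, EIF3D was at -0.0676, -0.0886, -0.65 and -0.71. With the replicate block SARS1 was at -0.10 and EIF3M at -0.15. EIF3G was at 0.32 with array weights, 0.53 with the replicate block and 0.72 with both libraries left out. EIF3I was at 0.0038 with quantile scaling and 0.26 with array weights, where EIF3L was at 0.16. Without 1 library the value ran from -0.65 to 0.66 for EIF3D, from -0.064 to 0.66 for SARS1, from -0.48 to 0.68 for EIF5, from -0.11 to 0.74 for EIF3M, from -0.86 to 1.09 for FARSA, from -1.11 to 0.55 for EIF3G, from -0.85 to 0.12 for EIF3I and from -0.93 to 0.24 for EIF4A1. The depth per library is unknown, so limits of detection could not be given.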
